A study of Mus musculus with 20 samples.

Results

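Serotonin acts on the brain through a family of receptors, and the transcripts of 10 of their genes were examined here: Htr1a, Htr1b, Htr1f, Htr2a, Htr2c, Htr3a, Htr4, Htr5a, Htr6 and Htr7. The genes were taken by name, 10 of the 35580 genes to which the transcripts of the deposited tables could be assigned, and their 24 transcripts were summed per gene. Hippocampal and neocortical RNA was taken from male mice at an age of 13.5 months. Per the paper, their founders were of mixed C57BL/6 and CBA/ca descent and were backcrossed onto C57BL/6J, and crosses of heterozygotes then gave a line of each genotype. The mice were either wild-type controls (WT) or miR-324-null, a constitutive deletion of the microRNA gene Mir324 in every tissue of the animal that takes away its 5p and 3p arms alike. Each of the 4 groups (WT hippocampus, miR-324-null hippocampus, WT neocortex, miR-324-null neocortex) held 5 samples. The labels do not state that each sample was a separate mouse or that the tissues of a given number shared a mouse, so p-values measure the spread between these samples, which may in part be technical. The microRNA itself was not measured by these mRNA libraries, and the deletion therefore gave no check of the genotype labels.

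The libraries held 12752439 to 19617765 estimated counts (median 14982602). The members were sparsely covered, from 5 counts (Htr1f in 1 miR-324-null hippocampus) to 893 (Htr2c in 1 WT hippocampus). Summed marker genes matched the tissue labels. Hippocampal markers summed to 438 to 555 TPM in hippocampus and 134 to 216 TPM in neocortex. TPM is the transcript level corrected for transcript length and library size. Neocortical markers summed to 438 to 689 TPM in neocortex and 131 to 241 TPM in hippocampus. Single markers did not all separate the tissues. In WT, the neocortical marker Tshz2 had a median of 34.5 TPM in hippocampus and 18.6 TPM in neocortex. Fezf2 of that list overlapped (22.5 to 30 and 18.1 to 36.0 TPM). The hippocampal marker Wfs1 overlapped in miR-324-null mice (26.7 to 98.1 TPM in hippocampus, 29.3 to 69.7 TPM in neocortex). Several libraries stood apart. Choroid plexus markers, led by Ttr, summed to 7080 TPM in WT hippocampus replicate 3, 6085 in miR-324-null hippocampus replicate 5 and 1321 in miR-324-null neocortex replicate 2, against 31.9 to 204 in the other libraries. In neocortex, striatal projection neuron markers summed to 255 to 705 TPM in miR-324-null libraries and 166 to 388 in WT libraries. In miR-324-null neocortex replicates 1 to 4 the neocortical sum was 438 to 530 TPM and the hippocampal sum 187 to 216 TPM, and in replicate 5 they were 689 and 137 TPM, against 560 to 626 and 134 to 163 TPM in the WT libraries. Replicate 5 thus lay above the WT range in its neocortical sum and inside it in its hippocampal sum. The neocortical sum leaned on Lamp5, at 286 to 331 TPM in WT and 193 to 390 TPM in miR-324-null neocortex. How the libraries stood in that list without Lamp5 was not tested. The hippocampal markers did not move together between the genotypes in neocortex. Wfs1 had a median of 61.7 TPM in miR-324-null and 37.9 TPM in WT neocortex, Fibcd1 4.93 and 2.24 TPM, and Spink8 3.61 and 1.27 TPM. Neurod6 (58.1 and 57.6 TPM) and Grik4 (10.25 and 10.1 TPM) had similar medians.

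Serotonin is made by neurons of the brainstem raphe nuclei, whose axons reach both hippocampus and neocortex, so the receptors examined here are made by the target tissue while the serotonin is made elsewhere. All of the receptors are G protein-coupled except Htr3a, which encodes a subunit of a cation channel opened directly by serotonin. Htr1a, Htr1b, Htr1f and Htr5a encode Gi/o-coupled receptors that lower cyclic AMP and, for Htr1a and Htr1b, open potassium channels or reduce transmitter release. Htr2a and Htr2c encode Gq-coupled receptors that activate phospholipase C, and Htr4, Htr6 and Htr7 encode Gs-coupled receptors that raise cyclic AMP.

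Because the mice lack a microRNA, the sequences that could pair with it are shown first. A microRNA pairs with the 3′UTR of a transcript mainly through its seed, bases 2 to 8, which are in capitals in the mature arms (RefSeq, GRCm38.p6, chr11:70012060-70012082 and chr11:70012095-70012114, plus strand).
miR-324-5p: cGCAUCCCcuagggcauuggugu
miR-324-3p: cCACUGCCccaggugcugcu

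The complement of each seed, GGGATGC for miR-324-5p and GGCAGTG for miR-324-3p, was searched on the sense strand of the annotated 3′UTRs of coding transcripts. There were 5 matches in 4 members, printed 5′ to 3′ with the match in capitals, and no match in Htr1a, Htr1f, Htr2a, Htr3a, Htr4 or Htr7.
Htr1b with miR-324-3p, chr9:81631368-81631390 (minus strand): ttgtcaatGGCAGTGgggtcgcc
Htr2c with miR-324-3p, chrX:147196289-147196311 (plus strand): gccaaggaGGCAGTGggaaagcg
Htr5a with miR-324-3p, chr5:27852318-27852340 (plus strand): atcaagttGGCAGTGtgactggt
Htr5a with miR-324-5p, chr5:27855037-27855059 (plus strand): atatttgtGGGATGCtttccatt
Htr6 with miR-324-3p, chr4:139061171-139061193 (minus strand): gggtggggGGCAGTGtctcggag

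Of the 14740 genes tested across all samples that have an annotated 3′UTR, 16.9% held the miR-324-3p match and 9.39% the miR-324-5p match. None of the 5 matches was followed by A, the extension to 8 bases that 4.27% of genes had for miR-324-3p and 2.92% for miR-324-5p. The members' longest 3′UTRs ranged from 312 bases in Htr6 to 4002 bases in Htr5a, beside a median of 1228 bases over those genes. A match is a description of these letters and not a functional site, and an arm beginning at another base would have another seed, which was not searched.

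The order of the receptors by level differed between the tissues. In WT hippocampus Htr1a, a receptor prominent on hippocampal pyramidal neurons, came first with 12.4 ± 1.2 TPM (SD, n = 5), followed by Htr2c with 11.5 ± 5.46 TPM and Htr3a with 7.91 ± 0.87 TPM. Htr7, Htr4, Htr5a, Htr2a, Htr1b and Htr6 followed between 5.37 and 2.96 TPM, each overlapping its neighbour in the order, and Htr1f came last with 1.05 ± 0.20 TPM. In WT neocortex Htr2a (7.49 ± 1.65 TPM) and Htr5a (7.16 ± 0.60 TPM) came first and Htr4 last, with 0.428 ± 0.23 TPM. Neighbours overlapped from Htr2a down to Htr6, while Htr6, Htr1f and Htr4 were separated from one another in every WT neocortex library. Htr2c came first in both tissues of miR-324-null mice. It held 14.4 ± 2.54 TPM in hippocampus, overlapping Htr1a (13.1 ± 1.41 TPM), and 12.8 ± 4.79 TPM in neocortex, overlapping Htr2a (8.73 ± 2.40 TPM). Summed over the 10 genes, the level was 55.6 ± 7.13 TPM in WT hippocampus, 63.2 ± 2.77 TPM in miR-324-null hippocampus, 44.1 ± 4.57 TPM in WT neocortex and 57.7 ± 6.24 TPM in miR-324-null neocortex. The Gi/o-coupled receptors made up 34.2% to 39.4% of that sum and the Gs-coupled receptors 18.1% to 22.2% as group means. The Gq-coupled share was 26.3% in WT hippocampus and 36.9% in miR-324-null neocortex.

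**Figure D1:**
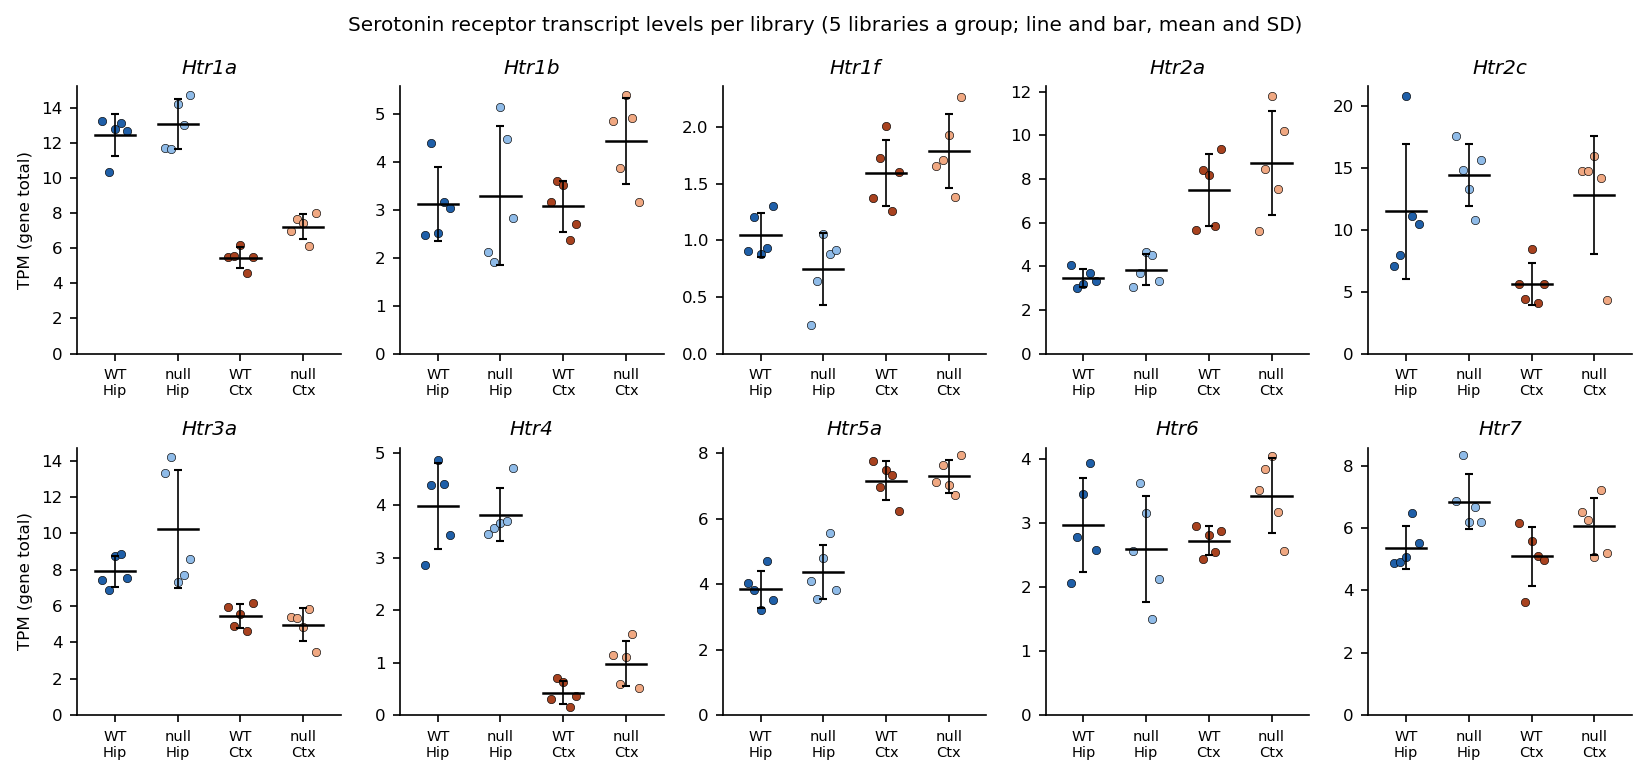
TPM of each serotonin receptor gene (vertical axis, all transcripts summed, each panel with its own scale from 0) in the 5 libraries of WT and miR-324-null hippocampus (Hip) and neocortex (Ctx); points are libraries, lines and bars the mean and SD. Htr1a and Htr4 are higher in every hippocampal library than in any neocortical library, Htr2a and Htr5a are lower, and Htr2c in miR-324-null neocortex has 4 libraries at 14.2 to 16.0 TPM and 1 at 4.31 TPM.

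Between the tissues of WT mice, 7 of the 10 receptors differed at an adjusted p of at most 0.05 (edgeR quasi-likelihood test, Benjamini-Hochberg over all genes), against a background of 36.1% of the 14894 genes tested (18.1% higher and 18% lower in hippocampus). Htr1a, Htr2c, Htr3a and Htr4 were higher in hippocampus, Htr1f, Htr2a and Htr5a were higher in neocortex, and Htr1b, Htr6 and Htr7 did not pass. The groups did not overlap in TPM for 5 receptors (Htr1a, Htr2a, Htr3a, Htr4 and Htr5a), where 19.8% of all genes did not overlap. The median log2 fold change of the 10 receptors was 0.11, beside -0.00077 over all genes tested.

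The largest tissue difference among the receptors was that of Htr4, a Gs-coupled receptor with a single transcript in the tables, on chromosome 18. In WT hippocampus its 5 libraries held 2.87, 4.38, 4.87, 4.40 and 3.44 TPM, and in WT neocortex 0.305, 0.697, 0.624, 0.156 and 0.357 TPM. Every hippocampal library was therefore above every neocortical library, although the neocortical values rested on only 6 to 28 counts each. The log2 fold change (hippocampus over neocortex) was 3.22 ± 0.27 (SE), a 9.34-fold difference, with an edgeR adjusted p of 9.23e-07. Without the 2 WT neocortex libraries of highest striatal marker sum it was 3.86 with an edgeR adjusted p of 2.34e-06. Over the alternatives it passed throughout, from 1.80 with limma on log2(TPM + 1), a scale that understates changes of low genes, to 4.03 with the striatal sum as a covariate. That sum did not overlap between the WT tissues (125 to 159 TPM in hippocampus, 166 to 388 TPM in neocortex). The covariate fit therefore separates it poorly from tissue.

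Htr1a (chr13:105443639-105448122, GRCm38, a single-exon gene on the plus strand) was 2.31-fold higher in WT hippocampus. Its libraries held 13.2, 10.3, 12.8, 13.2 and 12.7 TPM in hippocampus and 5.52, 5.57, 6.18, 4.56 and 5.47 TPM in neocortex. The groups were wide apart, with a log2 fold change of 1.21 ± 0.09 and an edgeR adjusted p of 3.32e-07. In bulk tissue, fewer cells of a type and less RNA per cell cannot be told apart, and this holds for each tissue and genotype difference given here.

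Htr2a (chr14:74640840-74709494, plus strand), the Gq-coupled receptor at which classical hallucinogens act, and Htr5a (chr5:27842149-27855088, plus strand) lay the other way. Htr2a held 4.08, 2.99, 3.20, 3.68 and 3.34 TPM in WT hippocampus and 5.67, 8.42, 8.19, 5.82 and 9.36 TPM in WT neocortex. Htr5a held 3.21 to 4.70 TPM in WT hippocampus and 6.23 to 7.76 TPM in WT neocortex. Neither gene overlapped between the tissues. Htr2a was 2.14-fold higher in neocortex (log2 fold change of -1.10 ± 0.16, edgeR adjusted p = 0.000125) and Htr5a 1.83-fold higher (log2 fold change of -0.87 ± 0.09, edgeR adjusted p = 4.89e-06).

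Htr3a (chr9:48899213-48911099, minus strand), the channel subunit that marks a large class of cortical interneurons of caudal ganglionic eminence (CGE) origin, held 6.90 to 8.89 TPM in WT hippocampus and 4.64 to 6.15 TPM in WT neocortex. Its log2 fold change was 0.55 ± 0.11 (edgeR adjusted p = 0.00146). The summed CGE interneuron markers overlapped between the tissues (901 to 1035 TPM in WT hippocampus and 1015 to 1194 TPM in WT neocortex), but Cck alone held 769 to 1062 TPM of them. The less abundant markers went different ways, with Vip at 14.6 to 21.6 TPM in WT hippocampus and 38.5 to 51.8 TPM in WT neocortex, and Adarb2 at 8.92 to 12.9 and 7.24 to 9.24 TPM, so the sum says little of these cells. Htr1f (chr16:64924729-65105854, minus strand) held 0.877 to 1.31 TPM in WT hippocampus and 1.26 to 2.01 TPM in WT neocortex, and the groups overlapped. Its log2 fold change of -0.59 ± 0.19 passed narrowly (edgeR adjusted p = 0.0301), and over the alternatives its adjusted p ranged from 0.0214 to 0.353. It rested on 17 to 43 counts a library, and no longer passed when any of 6 of the 10 WT libraries was left out.

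Htr2c (chrX:146962513-147197277, plus strand), whose transcript is very abundant in the choroid plexus epithelium, held 7.09, 7.94, 20.8, 11.1 and 10.5 TPM in WT hippocampus and 5.64, 4.39, 8.42, 4.08 and 5.64 TPM in WT neocortex. The highest value came from the hippocampal library with 7080 TPM of choroid plexus markers, and 2 other hippocampal libraries, at 7.09 and 7.94 TPM, lay below the highest neocortical library. The log2 fold change was 1.06 ± 0.27 (edgeR adjusted p = 0.007). Without that library (WT hippocampus replicate 3) it was 0.74 ± 0.18 and still passed (edgeR adjusted p = 0.0059). With the choroid plexus sum as a covariate it was 0.59 (edgeR adjusted p = 0.0278).

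The receptors that did not pass between WT tissues were Htr1b, Htr6 and Htr7. Htr1b (chr9:81628291-81633828, minus strand), an autoreceptor and heteroreceptor of axon terminals, had a log2 fold change of 0.15 with a 95% confidence interval of -0.20 to 0.49. The value for Htr6 (chr4:139061108-139075570, minus strand) was 0.07, with an interval of -0.24 to 0.38. For Htr7 (chr19:35958734-36057507, minus strand) it was 0.08, with an interval of -0.18 to 0.33. These intervals leave room for differences in either direction.

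In miR-324-null mice 6 of the 10 receptors passed between the tissues, beside 27.4% of 15033 genes (13.8% higher and 13.6% lower in hippocampus), and the groups did not overlap for these 6 receptors, beside 16.4% of all genes. Htr1a (log2 fold change of 0.93 ± 0.09, edgeR adjusted p = 1.12e-05), Htr3a (1.13 ± 0.22, edgeR adjusted p = 0.00237) and Htr4 (2.05 ± 0.24, edgeR adjusted p = 5.39e-05) were higher in hippocampus. Htr1f (-1.17 ± 0.28, edgeR adjusted p = 0.00746), Htr2a (-1.11 ± 0.17, edgeR adjusted p = 0.000407) and Htr5a (-0.67 ± 0.11, edgeR adjusted p = 0.000487) were higher in neocortex. These values share no libraries with the WT comparison. For Htr2c the log2 fold change was 0.26, with a 95% confidence interval of -0.34 to 0.85 and an edgeR adjusted p of 0.528. The striatal sum, at 106 to 133 TPM in miR-324-null hippocampus and 255 to 705 TPM in miR-324-null neocortex, did not overlap between these groups, and with that sum as a covariate only Htr4 of the 6 passed (3.25, edgeR adjusted p = 0.023), in a fit that called 268 genes in place of 4125. The fold changes of the other 5 were 0.75 ± 0.21 for Htr1a, 1.18 ± 0.60 for Htr3a, -1.45 ± 0.62 for Htr1f, -0.86 ± 0.38 for Htr2a and -0.91 ± 0.24 for Htr5a, in the direction of the fit without it and with larger SE.

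**Figure D2:**
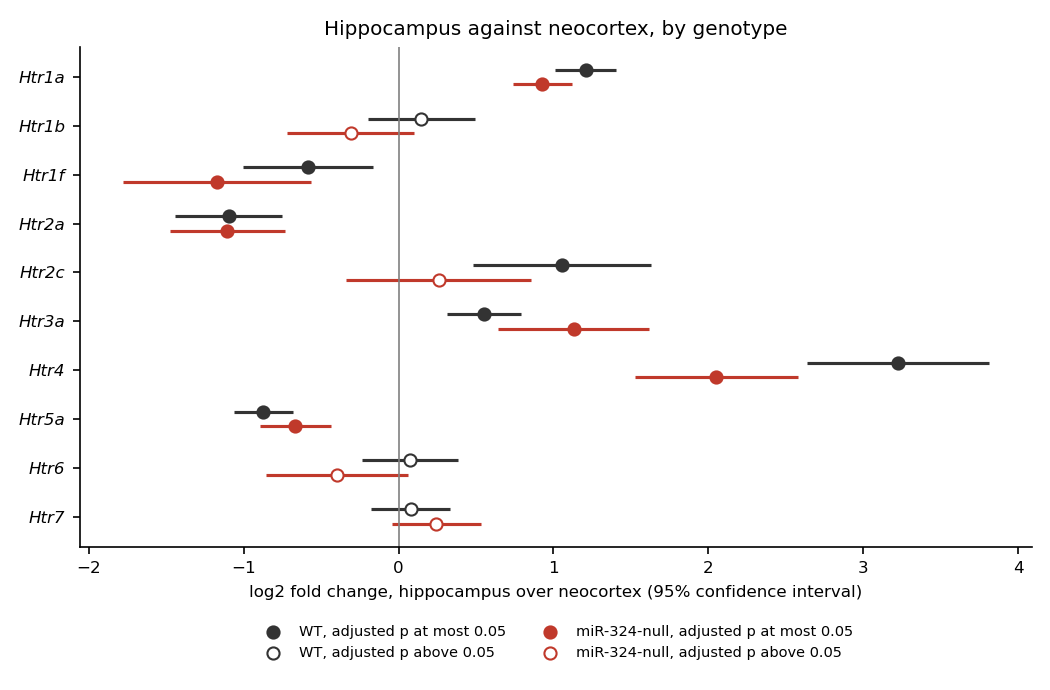
Log2 fold change of each receptor gene, hippocampus over neocortex (horizontal axis), in WT (dark) and miR-324-null (red) mice; bars are 95% confidence intervals and filled points have an edgeR adjusted p of at most 0.05. Htr4, Htr1a and Htr3a lie to the right and Htr2a, Htr5a and Htr1f to the left of 0 in both genotypes, while Htr2c is filled in WT (1.06) and open in miR-324-null mice (0.26).

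Between the genotypes in neocortex, none of the 10 receptors passed, beside 0.315% of 14930 genes called (0.161% higher and 0.154% lower in miR-324-null mice). At an unadjusted p under 0.05 there were 4 receptors (Htr1a, Htr1b, Htr2c and Htr4), all with higher values in miR-324-null neocortex, where 1822 of all genes lay under that p, and DESeq2 called 0 receptors as well. The median log2 fold change (miR-324-null over WT) of the 10 receptors was 0.25, beside 0.0046 over all genes. No receptor had groups that did not overlap, beside 1.75% of all genes.

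Htr2c had the largest of these values. WT neocortex held 5.64, 4.39, 8.42, 4.08 and 5.64 TPM, and miR-324-null neocortex 14.8, 14.8, 16.0, 14.2 and 4.31 TPM. Replicates 1 to 4 of the miR-324-null group were above every WT library, while replicate 5 lay among the WT libraries. The log2 fold change was 1.16 ± 0.30, with a 95% confidence interval of 0.52 to 1.79 and an edgeR adjusted p of 0.149. Without miR-324-null neocortex replicate 5 it was 1.38 ± 0.15 with an edgeR adjusted p of 0.000502, the only alternative in which a receptor passed between the genotypes, in a fit that called 566 genes in place of 47. Of the miR-324-null neocortex libraries, replicate 5 alone had a hippocampal marker sum inside the WT range and a neocortical sum above it, where the other 4 lay above and below. The neocortical sum leaned on Lamp5, as given above. Its choroid plexus sum was 42.3 TPM, against 66.7 to 1321 TPM in replicates 1 to 4. In order, replicates 1 to 4 had choroid plexus sums of 100, 1321, 66.7 and 102 TPM beside Htr2c levels of 14.8, 14.8, 16.0 and 14.2 TPM. The striatal sum of replicate 5, 255 TPM, was also the lowest of its group. With the striatal sum as a covariate the Htr2c value was 0.82 (edgeR adjusted p = 0.716), and with the choroid plexus sum 0.96 (edgeR adjusted p = 0.384). The part of the neocortical and hippocampal marker sums in the Htr2c value was not tested.

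Htr4 and Htr1b also had higher values in miR-324-null neocortex. Htr4 held 0.305, 0.697, 0.624, 0.156 and 0.357 TPM in WT and 1.14, 0.591, 1.10, 1.54 and 0.524 TPM in miR-324-null neocortex, so the groups overlapped. Its log2 fold change was 1.13 ± 0.39 (edgeR adjusted p = 0.267). Htr1b held 3.16, 3.62, 3.52, 2.37 and 2.71 TPM in WT and 4.85, 3.87, 5.42, 4.92 and 3.17 TPM in miR-324-null neocortex, with a log2 fold change of 0.50 ± 0.15 (edgeR adjusted p = 0.214). In both genes 1 miR-324-null library, replicate 5, lay inside the WT range, and for Htr4 replicate 2 did as well. With the striatal sum as a covariate these values were 0.41 for Htr4 and 0.18 for Htr1b.

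Across the 10 neocortical libraries the levels of Htr1b and Htr4 followed the summed striatal markers, none of which is a serotonin receptor. The sum leaned on Ppp1r1b, at 90.2 to 197 TPM in WT and 146 to 314 TPM in miR-324-null neocortex. This gene also held 49.3 to 97.3 TPM in hippocampus. Less abundant markers also had higher medians in miR-324-null neocortex, for example Adora2a with 17.1 TPM against 1.73 TPM in WT. The relation to the list without Ppp1r1b was not tested. For Htr1b the correlation on the log2 scale was r = 0.88 (permutation p = 0.00102, adjusted over 12 relations 0.0122) and rho = 0.90 (permutation p = 0.00079, adjusted 0.00948). For Htr4 it was r = 0.83 (permutation p = 0.00333, adjusted 0.02) and rho = 0.87 (permutation p = 0.00215, adjusted 0.0129). Leaving out the 2 libraries farthest from the median of the striatal sum gave r = 0.88 and r = 0.86. The libraries came from both genotypes, whose striatal sums overlapped (166 to 388 TPM in WT, 255 to 705 TPM in miR-324-null), and 5 libraries a genotype were too few for a value within each. After the mean of each genotype was taken off, a description chosen after seeing the data, r was 0.78 for Htr1b, 0.69 for Htr4, 0.37 for Htr2c and 0.21 for Htr6. Htr2c (r = 0.65, rho = 0.56) and Htr6 (r = 0.55, rho = 0.38) did not pass after adjustment (permutation p adjusted 0.175 and 0.29 for Htr2c, 0.208 and 0.558 for Htr6). In hippocampus, where the striatal sum was 106 to 159 TPM, the 4 relations with the striatal sum had r of 0.04 to 0.36. Of the other 4 relations, those of Htr2c with the choroid plexus sum had r of 0.63 in 8 hippocampal and 0.64 in 9 neocortical libraries, the libraries of very high sum being left out as a separate cluster, and those of Htr3a with the CGE interneuron sum, which is mostly Cck, had r of 0.47 in hippocampus and -0.05 in neocortex. None of these 4 passed, with permutation p adjusted to between 0.178 and 0.925 for r and rho.

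**Figure D3:**
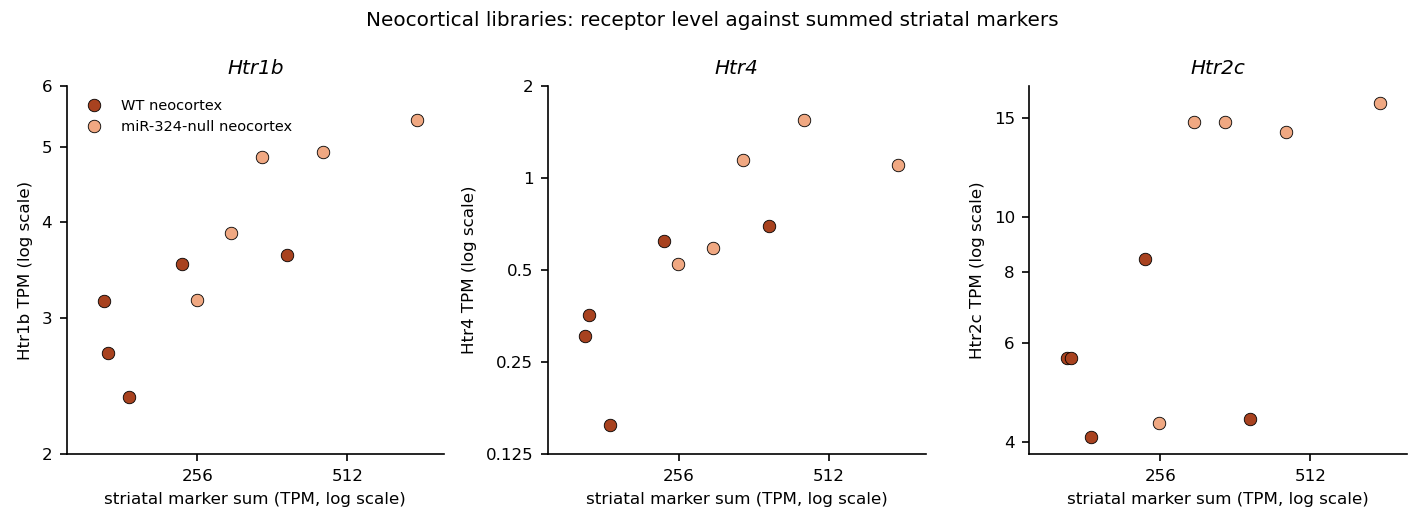
TPM of Htr1b, Htr4 and Htr2c (vertical axes, log scale) against the summed TPM of 12 striatal projection neuron markers (horizontal axes, log scale) in the 5 WT (dark) and 5 miR-324-null (light) neocortical libraries, each point a library. Htr1b and Htr4 climb with the striatal sum in both colours together (r = 0.88 and 0.83), while Htr2c has 4 light points near 15 TPM and the fifth at 4.31 TPM.

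Htr1a, in neocortex, held 5.52, 5.57, 6.18, 4.56 and 5.47 TPM in WT and 6.95, 7.63, 7.46, 6.10 and 8.01 TPM in miR-324-null libraries. The groups touched only through the lowest miR-324-null library at 6.10 TPM and the highest WT library at 6.18 TPM. The log2 fold change was 0.36 ± 0.09, with a 95% confidence interval of 0.16 to 0.57 and an edgeR adjusted p of 0.152. Leaving out single libraries gave 0.30 to 0.43 (edgeR adjusted p of 0.0858 to 0.345) and the other alternatives 0.35 to 0.40 (adjusted p of 0.0618 to 0.594), and with the striatal sum as a covariate it was 0.38. The remaining receptors in neocortex ran from -0.17 for Htr3a to 0.29 for Htr6, the value for Htr5a, the one receptor with a match to each arm of miR-324, being -0.01 with a 95% confidence interval of -0.15 to 0.13. The 3 other receptors with a match, Htr1b, Htr2c and Htr6, had 0.50, 1.16 and 0.29 in neocortex and 0.02, 0.34 and -0.20 in hippocampus, and none of these passed. Without a match, Htr4, Htr1a, Htr7, Htr2a, Htr1f and Htr3a had 1.13, 0.36, 0.22, 0.17, 0.12 and -0.17 in neocortex. In hippocampus they had -0.06, 0.07, 0.37, 0.14, -0.48 and 0.39, in the same order. Whether the values differ by the presence of a match was not tested.

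In hippocampus none of the 10 receptors passed between the genotypes, beside 0.115% of 14796 genes (0.0676% higher and 0.0473% lower in miR-324-null mice), and 1 receptor, Htr7, lay at an unadjusted p under 0.05, where 1635 of all genes did. DESeq2 again called 0 receptors. No receptor had groups that did not overlap, beside 1.64% of all genes, and the median log2 fold change of the 10 was 0.10, beside 0.0012 over all genes. Htr7, a Gs-coupled receptor, held 4.86, 4.90, 5.07, 6.49 and 5.52 TPM in WT and 6.85, 8.34, 6.17, 6.67 and 6.18 TPM in miR-324-null hippocampus. Only WT replicate 4 reached into the miR-324-null range. The log2 fold change was 0.37 ± 0.12, with a 95% confidence interval of 0.10 to 0.64 and an edgeR adjusted p of 0.327, and it was 0.20 with the striatal sum as a covariate.

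Htr3a in miR-324-null hippocampus held 13.3, 14.2, 7.35, 7.72 and 8.61 TPM, against 7.43, 6.90, 8.75, 8.89 and 7.56 TPM in WT. Replicates 1 and 2 were far above the other 3 libraries, which lay within the WT range. These 2 libraries also had the lowest hippocampal (438 and 496 TPM) and neocortical (144 and 131 TPM) marker sums of their group, and the part of that in the Htr3a level was not tested. The log2 fold change was 0.39 ± 0.20 (edgeR adjusted p = 0.499). For Htr2c, miR-324-null hippocampus held 17.6, 14.8, 13.3, 10.8 and 15.6 TPM and the log2 fold change was 0.34 ± 0.25 (edgeR adjusted p = 0.64). Without the library of highest choroid plexus sum in each genotype, it was 0.64 ± 0.17 (edgeR adjusted p = 0.257). The other members lay between -0.48 for Htr1f and 0.18 for Htr5a.

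**Figure D4:**
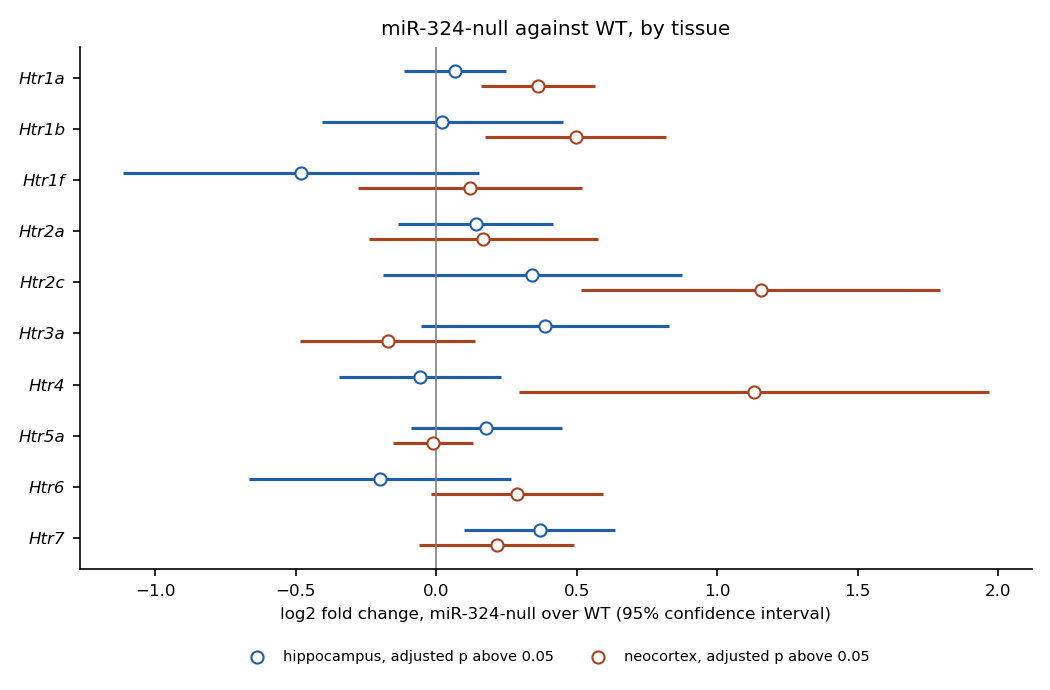
Log2 fold change of each receptor gene, miR-324-null over WT (horizontal axis), in hippocampus (blue) and neocortex (brown); bars are 95% confidence intervals and open points have an edgeR adjusted p above 0.05. All 20 points are open, and the values farthest from 0 are Htr2c (1.16) and Htr4 (1.13) in neocortex.

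The difference of the genotype effect between the tissues was tested as an interaction over all 20 libraries, and no receptor passed, beside 0.0195% of 15391 genes. At an unadjusted p under 0.05 there were 3 receptors (857 of all genes), and DESeq2 called 0 receptors. The interaction (genotype effect in hippocampus minus that in neocortex) was -1.18 ± 0.40 for Htr4, 0.57 ± 0.26 for Htr3a and -0.29 ± 0.13 for Htr1a, with edgeR adjusted p of 0.823, 0.88 and 0.88. For Htr2c it was -0.81 ± 0.42 (edgeR adjusted p = 0.901), so the tissue difference of Htr2c that passed in WT and not in miR-324-null mice was not shown to differ between them.

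Htr2c and Htr7 were each divided among several transcripts, and the junctions that separate them are shown because the estimated shares turn on few bases. The pre-mRNA of Htr2c is known for adenosine-to-inosine editing and for alternative use of a 5′ splice site beside the edited bases. In the annotation, exon 5 of Htr2c-201 ends at position 147169770 of chromosome X and that of Htr2c-207 at 147169675. Htr2c-201 holds 1380 coding bases and Htr2c-207 519. Below, the last 15 bases of exon 5 are in lower case and the first 15 bases of exon 6 (chrX:147193769-147193783, plus strand) in capitals.
Htr2c-201: gggcaatatcaatagGAGTTTCAGTTCCTA
Htr2c-207: catatcgctggaccgGAGTTTCAGTTCCTA

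Htr2c-201 held 63.7% ± 22.6 of the Htr2c TPM in WT hippocampus, 74.8% ± 22.7 in miR-324-null hippocampus, 66.2% ± 25.7 in WT neocortex and 54.0% ± 32.9 in miR-324-null neocortex (SD, n = 5), and Htr2c-207 nearly all of the rest. The share of Htr2c-207 ran from 2.70% to 65.1% among WT hippocampal libraries and from 0.27% to 72.8% among WT neocortical libraries. In miR-324-null neocortex replicate 5, the library with the low Htr2c level, all 214 counts were assigned to Htr2c-207 and Htr2c-201 was listed at 0. The difference in the share of Htr2c-207 between the genotypes was 10.5 percentage points in neocortex (exact permutation p = 0.619, two-sided) and -11.5 in hippocampus (exact permutation p = 0.444, two-sided).

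Of Htr7, the annotated transcripts differ in the 3′ coding region that encodes the tail of the receptor. Exon 2 of Htr7-202 ends at position 35969309 of chromosome 19 (minus strand) and that of Htr7-205 at 35969304, which leaves 1347 and 1308 coding bases. Exon 2 is again in lower case and exon 3 (chr19:35960385-35960399, minus strand) in capitals.
Htr7-202: aagcgagtttgtgctACAAAACTGTGACCA
Htr7-205: agtttgtgctgtaagACAAAACTGTGACCA

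Htr7-204, which carries an additional exon of 58 bases after exon 1 and is annotated as a nonsense-mediated decay transcript, held 36.8%, 41.9%, 30.8%, 22.2% and 33.4% of the Htr7 TPM in WT hippocampus. In miR-324-null hippocampus it held 23.3% and 18.4% in replicates 2 and 4 and was at or near 0 in the others. The difference of -24.7 percentage points had an exact permutation p of 0.0159 (two-sided), adjusted to 0.762 over the 48 shares and comparisons tested. The share of Htr7-205 was 41.6% ± 15.9 in miR-324-null hippocampus and 21.8% ± 9.35 in miR-324-null neocortex (exact permutation p = 0.0397, two-sided, adjusted 0.944). These were the 2 of 48 under an unadjusted 0.05, and none passed after adjustment. All Htr7 transcripts of a library together held 94 to 216 counts, and inside WT hippocampus alone the share of Htr7-205 ran from 0% to 58.6%. Htr1b-202 held 82.4% to 91.7%, Htr3a-202 82.9% to 89.5% and Htr6-202 89.7% to 100% of their genes as group means.

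**Figure D5:**
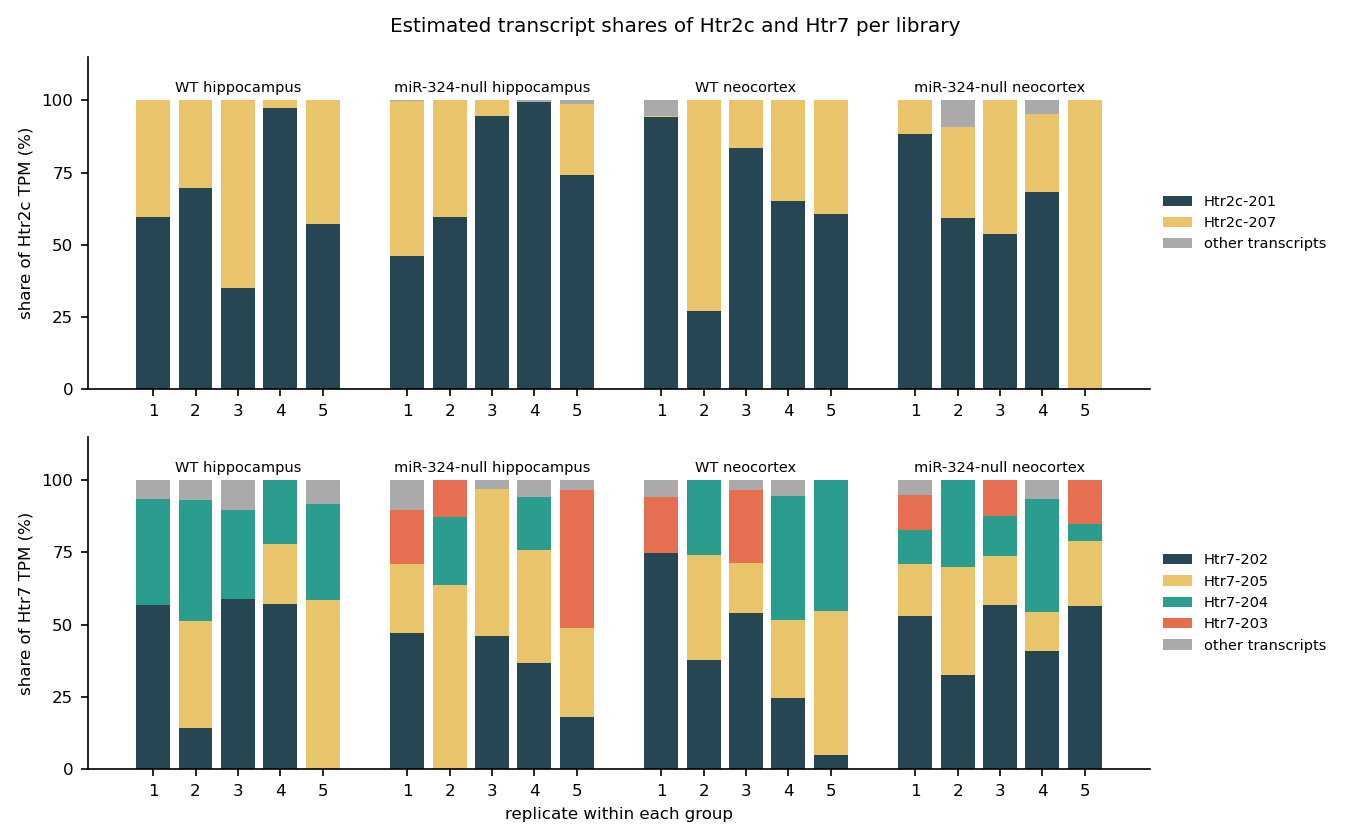
Share of the gene's TPM (vertical axis, percent) estimated for each transcript of Htr2c (top) and Htr7 (bottom), with a bar for each of the 5 libraries of each group. The division varies widely inside every group, for example from 2.70% to 65.1% for Htr2c-207 in WT hippocampus, and miR-324-null neocortex replicate 5 is assigned to Htr2c-207 alone.

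Of the serotonin receptor genes outside the 10, Htr5b, a Gi/o-type receptor, was 4.41 ± 0.48 TPM in WT hippocampus and 0.795 ± 0.20 TPM in WT neocortex, a log2 fold change of 2.48 ± 0.17 (edgeR adjusted p = 1.69e-07), and 2.50 ± 0.28 in miR-324-null mice (edgeR adjusted p = 3.98e-05). Htr1d, Htr2b and Htr3b reached at most 1.76 TPM in any library, and Htr3b was listed at 0 throughout miR-324-null hippocampus. Of the genes that mark serotonin neurons, Tph2, the neuronal enzyme of serotonin synthesis, was at 0.336 to 1.17 TPM, Slc6a4, the serotonin transporter, at up to 0.259 TPM and Fev, a raphe transcription factor, at up to 0.492 TPM, while Slc18a2, the vesicular monoamine transporter of all monoamine neurons, was at 1.93 to 3.27 TPM in every library. Among the 10 genes of serotonin synthesis, transport and breakdown, 7 were tested between WT tissues and 1 passed: Slc29a4, a low-affinity monoamine transporter, with a log2 fold change of 3.28 ± 0.26 (edgeR adjusted p = 5.38e-07). Its highest levels in each genotype, 35.7 and 28.9 TPM, came from the hippocampal libraries of very high choroid plexus sum, and the part of choroid plexus in its difference was not tested. In miR-324-null mice 3 of 7 passed, namely Slc29a4 (2.16 ± 0.30), Slc18a2 (0.42 ± 0.12) and Slc22a3, an organic cation transporter (-1.63 ± 0.50). Maoa and Maob, which break monoamines down, differed by at most 0.06 on the log2 scale in size between tissues or genotypes, and Ddc did not pass in any comparison. Tph1 passed the filter on low counts in no comparison.

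Among the partners of the receptors, 5 of 11 G protein alpha subunits tested passed between WT tissues (2 higher in hippocampus), of which Gnal (-0.29 ± 0.08), Gnaq (0.26 ± 0.05) and Gna11 (0.25 ± 0.04) were farthest from 0. Of 15 effectors 8 passed (2 higher in hippocampus). The farthest were Plcb4, a phospholipase C (-1.75 ± 0.07), Kcnj9, a subunit of the potassium channels that Gi/o-coupled receptors open (-0.84 ± 0.05), and Prkar2b, a regulatory subunit of protein kinase A (-0.77 ± 0.07). Of 14 genes of receptor partners, editing and regulation 8 passed (2 higher in hippocampus), led by S100a10 (-0.58 ± 0.08), which encodes p11, a binding partner of Htr1b, the arrestin Arrb1 (-0.44 ± 0.06) and the receptor kinase Grk5 (-0.42 ± 0.10). Adar and Adarb1, the enzymes that edit Htr2c, were lower in hippocampus (-0.27 ± 0.07 and -0.27 ± 0.05). These shares read against the 36.1% of all genes given above. Between the genotypes 0 genes of these lists passed in either tissue with edgeR or with DESeq2. At an unadjusted edgeR p under 0.05 lay 3 of 12 alpha subunits and no gene of the other lists in hippocampus, beside 11.05% of all genes tested. In neocortex there were 1 of 2 other receptors (Htr1d), 1 of 7 genes of synthesis, transport and breakdown, 1 of 11 alpha subunits, 2 of 15 effectors and 3 of 14 partners, beside 12.2% of all genes tested.

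After the mean of each group was taken off, the genes whose log2 library-scaled counts followed a receptor most closely over the 20 libraries were listed as a description, with no test. For Htr3a they were Samd14 (r = 0.95), Dcaf12l1 (0.91) and Mtfp1 (0.90). For Htr2c they were Sdc1 (0.89), Dnah2 (0.88) and Togaram2 (0.86). For Htr4 they were Krt9 (0.88), Lrrc10b (0.87) and Adora2a (0.84), the last being in the striatal list. For Htr1b they were Wfs1 (0.82), which is in the hippocampal list, Scn4b (0.82) and Gsg1l (0.81). For Htr5a they were Fam169a (0.86), Evi5 (0.80) and Tbr1 (0.80), of which Tbr1 is in the neocortical list. The leading genes of Htr6 (Zfp13, 0.86), Htr1f (Slu7, 0.84), Htr7 (Cadm1, 0.83), Htr2a (Sh3yl1, 0.81) and Htr1a (Zfp58, 0.76) followed. Within the family the closest pair was Htr3a with Htr7 (r = 0.66). The libraries share depth and tissue makeup, which these values do not separate.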

How the data were processed

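Per the labels and the study's methods, stranded poly(A) libraries of 20 tissue samples were pseudoaligned by the authors with kallisto to the mouse GRCm38 transcriptome, and the submitters' processing notes also name DESeq2. The versions of kallisto and DESeq2 are not given in the sources used here, and the notes name a human build although every transcript identifier is a mouse one. The deposited estimated counts are kallisto's estimates per transcript, and the deposited TPM values are the authors' length-scaled levels per transcript. Of 115270 transcripts in each table, 113580 matched GENCODE vM21 (GRCm38) and were summed to 35580 genes. The 1690 others held 0.509% to 0.556% of the counts and were left out.

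Gene sums of estimated counts were rounded and tested with edgeR 4.0.16 (R 4.3.3), using filterByExpr, TMM scaling and the quasi-likelihood F test, on the 10 libraries of each comparison, or on all 20 for the interaction. The p-values were adjusted by Benjamini-Hochberg over all genes tested, with a threshold of 0.05. DESeq2 1.42.0, limma 3.58.1 and the other alternatives were run as described under the dependence on processing. In a test on simulated counts, a log2 change of 1 was given to 200 genes with a mean expected count of at least 20. Of these, edgeR recovered 86.5% in the hippocampal genotype comparison (14681 genes, 1.7% of calls false) and 91.5% in the WT tissue comparison (14787 genes, 4.19% of calls false). DESeq2 recovered 90.5% and 93.5%, with 8.12% and 11.4% of calls false. The rates do not cover sparser genes, differences in tissue makeup between libraries or the neocortical genotype comparison, which were not simulated. Levels of different genes were compared only in TPM. Transcript shares were compared by the exact permutation test, whose smallest p for 5 against 5 is 0.00794, and only for transcripts with a share of at least 10%. Correlations used log2 values and 100000 permutations.

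The receptors, marker lists and pathway lists were chosen with earlier results of these data known. Named were all 10 receptors, the genes of the lists of other serotonin receptors and of serotonin synthesis and transport, and in each of the other 3 lists the 3 genes farthest from 0 among those that passed between WT tissues. Adar and Adarb1 were added after their values were seen. For each receptor the 3 genes of highest Pearson r were named, of which only the first is given for 5 receptors. Same-numbered samples were not treated as pairs, since the labels do not tie them and the correlation of their deviations (-0.17 to 0.18) was not over 0.1 for every number in any of the 4 pairings of groups.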

Additional observations from a re-analysis of the deposited data

Results flagged for a closer look

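In each of the 40 combinations of receptor and group, the sample farthest from the others was tested by Dixon's ratio, for which chance alone marks about 1 in 20 groups, and 3 stood out. Htr2c in miR-324-null neocortex replicate 5 was 4.31 TPM, with a ratio of 0.85 against a critical value of 0.71. Htr1a in WT hippocampus replicate 2 was 10.3 TPM (ratio 0.80), the lowest of its group. Htr4 in miR-324-null hippocampus replicate 5 was 4.72 TPM (ratio 0.80), the highest of its group and from a library of very high choroid plexus sum.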

How the results depend on the processing

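Single libraries were left out, and normalization, filter, tool, length offset, pseudocount, pooling of all 20 libraries and the replicate block were varied. Marker sums as covariates in the tissue and interaction fits, and the fits without the libraries of highest striatal or choroid plexus sum, were chosen after seeing the data. The number of receptors that passed was 6 to 7 between WT tissues over all alternatives, 1 in miR-324-null mice with the striatal sum as a covariate, and between the genotypes in neocortex 0 to 1 when leaving out single libraries, the 1 being Htr2c without miR-324-null neocortex replicate 5. The cause was not tested.

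Signs changed only among fold changes that had not passed. With the striatal sum as a covariate Htr7 between tissues was -0.18 in WT and -0.029 in miR-324-null mice, Htr1b between miR-324-null tissues 0.28, Htr4 between genotypes in hippocampus 0.051, Htr5a and Htr2a in neocortex 0.049 and -0.010, and the interactions of Htr2a and Htr7 0.15 and -0.12. With the choroid plexus sum Htr6 between WT tissues was -0.063. Without the libraries of highest striatal sum Htr7 between WT tissues was -0.011, and without those of highest choroid plexus sum Htr1b between genotypes in hippocampus was -0.039. With limma Htr5a in neocortex was 0.028 and 0.025 (pseudocounts 0.1 and 1). Leaving out single libraries gave ranges across 0 for Htr6 (-0.00012 to 0.16) and Htr7 (-0.0065 to 0.14) between WT tissues, Htr1b (-0.15 to 0.13) and Htr4 (-0.14 to 0.021) between genotypes in hippocampus, Htr5a in neocortex (-0.050 to 0.025) and the interaction of Htr2a (-0.13 to 0.10). In percentage points, the share differences did so for Htr2c-207 between WT tissues (-4.60 to 13.5) and between genotypes in neocortex (-3.67 to 20.5), Htr7-204 between genotypes in neocortex (-8.49 to 2.79), and Htr7-205 between WT tissues (-11.8 to 3.02) and between genotypes in neocortex (-10.9 to 1.61).

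Counts over all genes moved more. Between genotypes in hippocampus 17 genes were called, and 10 to 31 without single libraries, 141 with DESeq2, 90 with DESeq2 and a length offset, 83 with all 20 libraries in a fit, 11 with limma (pseudocount 0.1), 9 with at least 10 counts in every sample and 4 with the striatal sum. In neocortex 47 were called, and 27 to 566 without single libraries, 241 with DESeq2, 195 with DESeq2 and a length offset, 30 with the offset in edgeR, 22 and 29 with limma, 26 under the stricter filter, 26 with the choroid plexus sum and 13 with the striatal sum. The interaction called 3, and 1 to 20 without single libraries, 7 and 9 with DESeq2, and 0 or 1 with limma, the length offset in edgeR or the striatal sum.

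With the replicate number as a block, Htr1b between genotypes in hippocampus was -0.013, 4 genes were called in hippocampus, 30 in neocortex and 0 in the interaction, and no receptor passed between the genotypes. Whether the numbers pair the samples is not given by the labels. Between the tissues of miR-324-null mice 3 of the 5 same-numbered correlations were over 0.1, each best with its own number, and 1 of 5 was over 0.1 in each of the other pairings. Between the tissues of WT mice replicates 1 and 3 were best with their own number. Between the genotypes this held for replicate 4 in hippocampus and replicate 3 in neocortex. Htr1f, Htr4 in neocortex and Htr6 rested on fewer than 100 counts a library, which limits their precision most.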
